A study of Homo sapiens with 16 samples.

Results

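The MYC, MAX and MXD network was followed in RNA-Seq of MUTZ-3 cells as a list of 10 genes, MYC, MAX, MXD1, MXD3, MXD4, MXI1, MNT, MLX, MLXIP and MGA. They were taken by symbol, and all 10 were found, each as 1 row, among the 60623 genes of the deposited count files. MUTZ-3 is an AML cell line with inv(3), a rearrangement of chromosome 3 that drives EVI1, a gene listed in the files as MECOM. In the inhibitor experiment, cells were left untreated (0 h) or spent 12, 24 or 48 h with a PARP inhibitor, olaparib at 10 µM or talazoparib at 1 µM, or with the vehicle DMSO. For the knockdown, cells carried a lentiviral pLKO.1 vector with a non-targeting control shRNA (NTC) or 1 of 2 shRNAs against EVI1, called shEVI1-2531 and shEVI1-2532, were selected with puromycin, and were harvested at day 3 or day 6. All cells were kept in medium with GM-CSF and conditioned medium of 5637 cells. Only 1 library stands for each of the 16 conditions, and all came from bulk RNA of this 1 line.

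MYC, MAX and their relatives are basic helix-loop-helix leucine zipper proteins that bind DNA as pairs. MYC needs MAX to bind the E-box CACGTG, and the pair activates genes of ribosome production, nucleotide synthesis and cell growth. MXD1, MXI1, MXD3, MXD4, MNT and MGA compete with MYC for MAX, and the MXD proteins and MNT bring SIN3, NCoR and histone deacetylases to the same E-boxes. MLX is a second hub, which pairs with the glucose-sensing protein MLXIP (MondoA) and with some MXD proteins and MNT. In blood cells, MYC is known for proliferating progenitors, and MXD1 is known to be induced as myeloid cells mature.

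Promoter windows were available for 9 of the members in a RefSeq table of GRCh38.p14 (250 bases before to 50 after a gene's start). Those of MXD1, MXD4 and MXD3 are shown because these 3 genes had the largest fold changes with the inhibitors. Each is written 5′ to 3′ on the strand of its gene, and capitals mark CACGTG, the CCAAT box (ATTGG where it lies on the opposite strand) and TTTCGCG, an E2F-type site.
MXD1, chr2:69914859-69915158, plus strand: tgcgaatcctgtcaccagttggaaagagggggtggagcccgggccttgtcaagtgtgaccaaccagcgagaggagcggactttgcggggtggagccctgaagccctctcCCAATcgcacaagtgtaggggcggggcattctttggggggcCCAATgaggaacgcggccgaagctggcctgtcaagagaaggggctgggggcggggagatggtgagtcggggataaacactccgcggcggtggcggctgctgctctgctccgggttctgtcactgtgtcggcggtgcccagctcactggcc
MXD4, chr4:2262060-2262359, minus strand: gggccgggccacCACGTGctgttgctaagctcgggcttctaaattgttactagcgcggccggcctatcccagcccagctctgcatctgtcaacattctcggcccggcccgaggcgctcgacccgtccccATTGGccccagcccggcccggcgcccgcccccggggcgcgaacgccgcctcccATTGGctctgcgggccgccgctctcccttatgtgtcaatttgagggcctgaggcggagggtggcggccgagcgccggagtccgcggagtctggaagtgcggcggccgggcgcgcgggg
MXD3, chr5:177312703-177313002, minus strand: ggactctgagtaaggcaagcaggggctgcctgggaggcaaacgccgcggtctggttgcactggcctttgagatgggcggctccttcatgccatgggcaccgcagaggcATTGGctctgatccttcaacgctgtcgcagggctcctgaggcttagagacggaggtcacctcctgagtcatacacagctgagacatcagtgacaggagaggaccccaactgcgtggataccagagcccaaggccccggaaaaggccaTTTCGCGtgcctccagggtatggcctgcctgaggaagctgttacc
The MXD1 window lies inside the span that the count files give for the gene, which begins upstream at position 69897688 of chromosome 2. The search covered both strands and 5 motifs, the E-box CACGTG, the CCAAT box, the E2F-type sites TTTCGCG and also TTCCCGC, and the cell cycle element TTTGAA, none of which contains another. CACGTG was found in the windows of MXD4, MNT and MLX, at -238, -193 and -50 from the start, and in 7.43% of all 27305 windows of the table. CCAAT was found in the windows of MXD1, MXD4, MXD3, MLX and MLXIP and in 35.7% of all. TTTCGCG was found in the MXD3 window only, at position 5 after the start, and in 1.35% of all. TTCCCGC (6.56% of all) and TTTGAA (15.4% of all) were in none of the 9 windows. These are matches of letters, and binding was not measured.

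The inhibitor libraries held 55999673 to 72681943 counts in genes and the knockdown libraries 95523038 to 120716213. Levels are given as CPM (counts scaled to a common library total) with TMM scaling, which sets the middle of the genes level between libraries. Scaling to the library total alone would shift all log2 ratios at 48 h by -0.19 with olaparib and -0.27 with talazoparib. A log2 ratio of 2 libraries carries a 95% interval that covers counting error only, and tests use time points or days in place of replicates. In bulk RNA, a shift in the mix of cell states cannot be told apart from a change within each cell. Of the defining genes of other lineages, MS4A1 (B cells) and KRT5 (epithelium) had no count and EPCAM (epithelium) had at most 3, whereas CD3E and CD79A of lymphocytes reached 1011 and 2165 counts, KRT7 1501, PECAM1 9652 and the megakaryocyte gene ITGA2B 19639. The progenitor genes FLT3 and PROM1 never passed 30 and 46 counts. MPO and CD33 were abundant, and CD34 ranged from 339 to 83487 counts.

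Every member was detected in all 16 libraries, with 275 counts or more. Members were compared per exonic kilobase, over all annotated exons of a gene merged. This adjusts for gene length but not for which transcripts are in use, so the order is approximate. MYC was the most abundant member with a median of 98.7 CPM per kb and a range of 72.0 to 136.4 over the libraries. MAX (31.2) and MLX (23.4), the 2 hubs, followed. MXD1 had a median of 8.97 and MXD4 of 6.64, and then came MLXIP (4.85), MXI1 (4.5), MNT (2.58), MGA (2.5) and MXD3 (1.66). The range of MYC stood above those of all other members, whereas the ranges of neighbours from MAX downwards overlapped, so that their order is not fixed. MXD1 had the widest range, from 3.61 CPM per kb in NTC at day 6 to 38.3 with talazoparib at 48 h, a level above that of MAX in every library. Exonic lengths are those of GENCODE v29, whose gene spans differ from those of the files for MYC, MXD4, MLXIP and MNT.

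**Figure D1:**
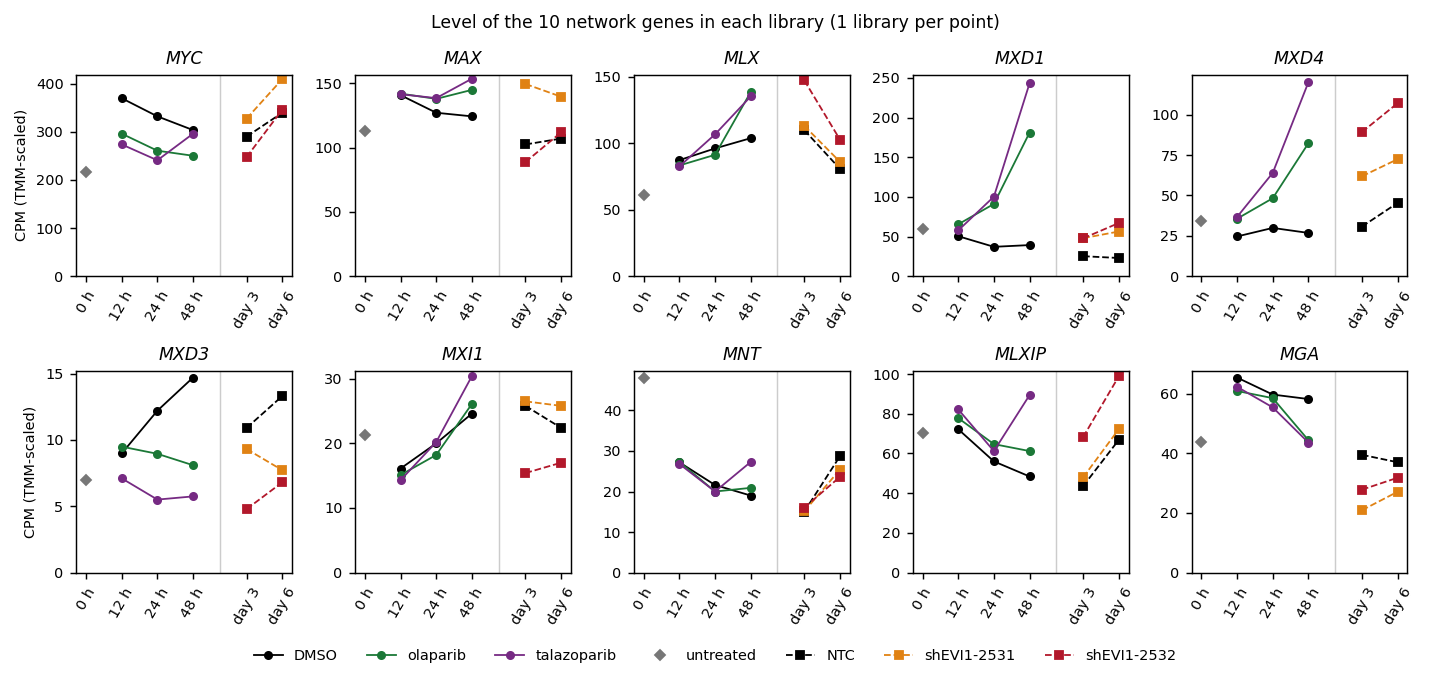
Level of each member (y axis, TMM-scaled CPM, from 0) in the 16 libraries, by hour for untreated, DMSO, olaparib and talazoparib and by day for NTC and the 2 EVI1 shRNAs, with 1 library per point. MXD1 and MXD4 reach 243.3 and 120.2 CPM with talazoparib at 48 h, while MXD3 stays at 9.49 CPM or less with either inhibitor and reaches 14.7 CPM with DMSO.

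MYC, the activator of the network, was lower with both inhibitors than with DMSO in all 6 pairs, at 72.5% to 97.5% of the DMSO level, and the change did not pass the test. Its level was 369.9, 332.2 and 303.7 CPM with DMSO at 12, 24 and 48 h. Olaparib libraries had 296.2, 260.8 and 250.3 CPM. Talazoparib libraries had 273.9, 240.9 and 296.2 CPM. The log2 ratio was -0.43 at 12 h and -0.46 at 24 h with talazoparib, and -0.04 (95% interval -0.07 to 0.00) at 48 h, when DMSO and talazoparib were nearly level under TMM scaling. With scaling to the library total, the 48 h ratio was -0.30 with talazoparib and -0.47 with olaparib, so this near-level value depends on the scaling. The mean effect over both inhibitors was a log2 fold change of -0.31 ± 0.105 (SE, 9 libraries, adjusted p = 0.0811, edgeR). Without the 48 h libraries it was -0.39 with an adjusted p of 0.0354, so the call depends on that time. All 6 inhibitor libraries, like the 3 DMSO libraries, were above the 216.2 CPM of untreated cells.

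MAX, the shared partner, had nearly the same level in the 12 h libraries, with 140.9 CPM in DMSO, 142.1 with olaparib and 141.6 with talazoparib. At 48 h the values were 124.4, 145.0 and 153.7 CPM, log2 ratios of 0.22 (0.18 to 0.27) for olaparib and 0.31 (0.26 to 0.35) for talazoparib. These ratios depend on the scaling, and were 0.03 and 0.04 with scaling to the library total. The mean effect of 0.13 ± 0.0907 did not pass the test (adjusted p = 0.334).

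MXD1, the antagonist induced in maturing myeloid cells, showed the widest change. DMSO libraries had 50.4, 37.0 and 39.2 CPM at 12, 24 and 48 h. Olaparib libraries had 65.4, 91.1 and 181.1 CPM, and talazoparib libraries had 57.7, 100.3 and 243.3 CPM. No inhibitor library overlapped the DMSO libraries, but untreated cells, at 59.0 CPM, were above all DMSO libraries and above talazoparib at 12 h. The share of all genes apart in this way was not counted, here or for the members below. MXD1 shares 237 exonic bases with SNRNP27 on its own strand. The log2 ratios went from 0.38 at 12 h to 1.30 and 2.21 with olaparib, and from 0.20 to 1.44 and 2.63 with talazoparib. The difference from DMSO grew by 1.07 ± 0.134 log2 units with each doubling of time (adjusted p = 1.64e-13, edgeR), while the mean over the times was 1.28 ± 0.349 (adjusted p = 0.0597). The time test rests on a spread common to all genes. With both inhibitors as 1 group, its adjusted p for MXD1 was 0.00539.

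MXD4, a further MAX partner of the same family, was higher than DMSO from the first time point. It measured 24.6, 29.9 and 26.8 CPM with DMSO, 35.6, 48.3 and 82.4 CPM with olaparib and 36.7, 64.0 and 120.2 CPM with talazoparib at 12, 24 and 48 h. Here too the inhibitor and DMSO libraries were apart, with untreated cells between them at 34.3 CPM. At 48 h the talazoparib library stood 2.16 log2 units (2.09 to 2.24) above DMSO. The mean effect was 1.08 ± 0.235 (adjusted p = 0.0471), and the growth with time 0.67 ± 0.136 per doubling (adjusted p = 1.62e-05).

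MXD3 went the other way. This member differs from its relatives in that it is known from dividing cells. DMSO libraries had 8.98, 12.2 and 14.7 CPM, olaparib libraries 9.49, 8.95 and 8.09 CPM, and talazoparib libraries 7.10, 5.5 and 5.74 CPM at 12, 24 and 48 h. The talazoparib libraries were below all DMSO libraries, and the olaparib libraries overlapped the DMSO libraries at 12 h. Untreated cells, at 7.01 CPM, were also below all DMSO libraries. The talazoparib effect was -0.96 ± 0.208 (adjusted p = 0.0485), the mean effect -0.70 ± 0.174 (adjusted p = 0.0537) and the change with time -0.49 ± 0.148 per doubling (adjusted p = 0.00778). MXD3 shares 1158 exonic bases with PRELID1 on the opposite strand and 926 with RAB24 on its own, and whether reads were assigned by strand is not given in the sources used here, so its counts are uncertain.

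MXI1 (also called MXD2) did not follow MXD1 and MXD4. It had 16.1, 20.0 and 24.6 CPM with DMSO, 15.1, 18.2 and 26.1 CPM with olaparib and 14.3, 20.2 and 30.4 CPM with talazoparib. All 3 treatments thus had higher values at later times, and the mean inhibitor effect was 0.00 on the log2 scale, with a 95% interval of -0.25 to 0.25.

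Of the larger antagonists, MNT, the constitutive MAX partner, was at 27.2 CPM with DMSO, 27.3 with olaparib and 26.8 with talazoparib at 12 h. At 48 h it was at 19.0, 20.9 and 27.3 CPM, a log2 ratio of 0.52 (0.41 to 0.63) for talazoparib. MGA, which pairs with MAX and also carries a T-box domain, measured 58.2 CPM with DMSO, 44.4 with olaparib and 43.6 with talazoparib at 48 h, log2 ratios of -0.39 and -0.42. Neither passed a test (mean effects of 0.07 and -0.19, adjusted p = 0.716 and 0.202).

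On the glucose-sensing arm, MLXIP had 48.4 CPM with DMSO at 48 h, 61.2 with olaparib and 89.4 with talazoparib. Its ratio was above 0 in all 6 pairs, from 0.11 to 0.88, and its mean effect was 0.31 ± 0.139 (adjusted p = 0.154). MLX measured 103.7, 138.4 and 135.1 CPM at 48 h but differed by at most 0.15 log2 units from DMSO at 12 and 24 h. It shares 770 exonic bases with PSMC3IP on the opposite strand. Its mean effect of 0.12 (-0.15 to 0.38) did not pass the test.

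**Figure D2:**
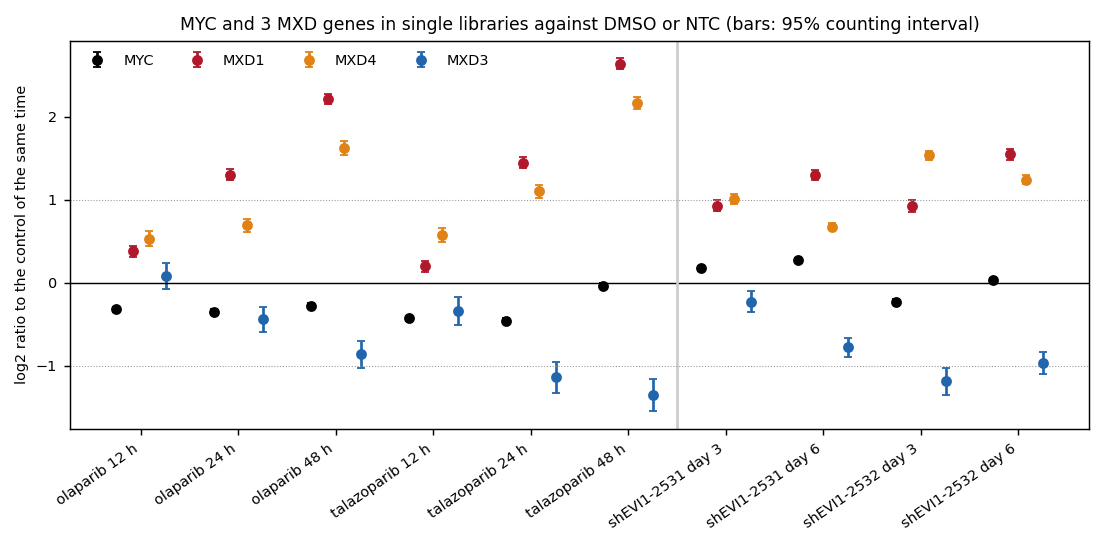
Log2 ratio (y axis) of MYC, MXD1, MXD4 and MXD3 in each inhibitor or EVI1 shRNA library to the control library of the same time (x axis), with bars for the 95% counting interval and dotted lines at 2-fold. MYC lies between -0.46 and 0.27 in all 10 pairs, MXD1 and MXD4 lie above 0 in all, and MXD3 lies below 0 in all but olaparib at 12 h.

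Counted over the network, inhibitors changed few members by the test. For the mean of both inhibitors, 1 of 10 members passed (MXD4), beside 4.17% of all 17218 genes tested. For talazoparib alone, 2 passed (MXD4 higher, MXD3 lower), beside 4.0% of all genes. Both talazoparib calls were lost with scaling to the library total (MXD4 0.0504, MXD3 0.0553), with a filter of 1 CPM (0.0555 each), without the time term (0.206 and 0.171) and without the 24 h libraries (0.314 each), while MXD1 was gained with DESeq2 (0.00268), without the low-count filter (0.0012) and without the 12 h libraries (0.00168), and MYC without the 48 h libraries (0.0386). For olaparib alone, 0 passed in edgeR, beside 0.639% of all genes. An unadjusted p under 0.05 was found for 3 members, beside 3161 of all genes. DESeq2 called 2 members (MXD1 and MXD4), with 669 genes over all, against 110 in edgeR. For the change with time, 3 passed (MXD1 and MXD4 upwards, MXD3 downwards), beside 19.8% of all genes. The mean test takes the growth with time as spread, and its calls shifted: MXD4 was lost without the 24 h libraries (adjusted p = 0.34), with a filter of 1 CPM (0.0579) and without the time term (0.214), and MXD1 was gained without the 12 h (0.00166) or 48 h libraries (0.0375). In the time test, edgeR found no gene-specific spread beyond the common trend on 2 residual degrees of freedom, and with both inhibitors as 1 group MXD1 (adjusted p = 0.00539) and MXD4 (0.046) still passed while MXD3 did not (0.173). None of the 3 passed that test when the 12, 24 or 48 h libraries were also left out.

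Single pairs show when the members left the range of 2-fold. At 12 h, none of the 10 members was beyond 2-fold, with 4.76% of all genes for olaparib and 4.86% for talazoparib. At 24 h, MXD1 was beyond it with olaparib (8.35% of all genes) and MXD1, MXD4 and MXD3 with talazoparib (12.5%). At 48 h, MXD1 and MXD4 were beyond it with olaparib (19.7%) and the same 3 as before with talazoparib (31.1%).

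The 2 inhibitors were given at different doses, 10 µM olaparib and 1 µM talazoparib, so their values stand side by side only. The difference between them was tested across all genes, and 0 genes passed (0.0%), with 354 genes at an unadjusted p under 0.05 and 1 gene called by DESeq2. MXD3 had the smallest p of the members, at a difference of -0.53 (-1.0 to -0.06, adjusted p = 0.952). For MXD1 the difference was 0.18 (-0.67 to 1.02) and for MYC 0.01 (-0.27 to 0.29), intervals that leave room for differences in either direction.

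Several members also differed between untreated cells and DMSO, in single libraries with no test, where vehicle and culture time cannot be told apart. MNT had 48.1 CPM in untreated cells and 27.2, 21.6 and 19.0 CPM with DMSO, a log2 ratio of -0.82 (-0.91 to -0.74) at 12 h and -1.34 (-1.43 to -1.24) at 48 h. MYC was 0.77 log2 units (0.75 to 0.80) above untreated cells at 12 h and 0.49 (0.46 to 0.52) at 48 h. MXD3 was 1.07 (0.91 to 1.23) and MLX 0.77 (0.72 to 0.83) above, and MXD1 was 0.59 below (-0.66 to -0.52), at 48 h. Within DMSO, from 12 to 48 h, the log2 ratio was -0.28 for MYC and -0.51 for MNT. For MYC, MNT, MLX, MGA and MXI1, the largest ratio of DMSO to untreated cells exceeded in size any inhibitor ratio of the same gene. For MAX it did so narrowly (0.32 against 0.31), and for MXD1, MXD3, MXD4 and MLXIP it did not. Between NTC at day 3 and day 6, MNT went from 15.0 to 28.7 CPM and MLXIP from 43.5 to 66.8 CPM, whereas MLX went from 109.8 to 80.7 CPM.

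Summed per exonic kilobase, MXD1, MXD4, MXI1 and MXD3 counts amounted to 13.5, 15.1 and 18.0 for every 100 of MYC with DMSO at 12, 24 and 48 h. The sums were 20.7, 30.9 and 56.9 with olaparib and 20.6, 37.8 and 63.9 with talazoparib. Untreated cells had 27.9, more than any DMSO library and more than either inhibitor library at 12 h. The make-up of the sum shifted as well. MXD3 made up 15.7% of it with DMSO at 48 h and 1.77% with talazoparib, while MXD1 and MXD4 together went from 54.9% to 87.8%. These are ratios of counts per merged exonic length, with the same limit as above, and protein was not measured.

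**Figure D3:**
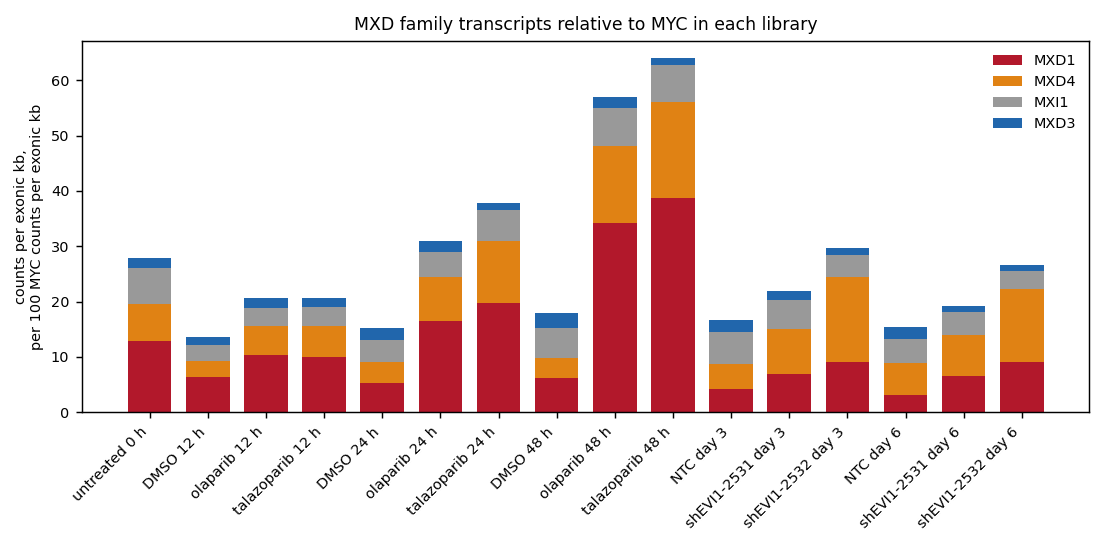
Counts per exonic kb of the 4 MXD genes (stacked bars, from 0) for every 100 counts per exonic kb of MYC in each of the 16 libraries (x axis). The bars reach 56.9 and 63.9 at 48 h with olaparib and talazoparib, against 18.0 with DMSO, and 26.7 with shEVI1-2532 at day 6 against 15.5 with NTC.

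In the knockdown experiment the targeted gene was checked first. MECOM had 40.6 and 37.2 CPM in NTC at day 3 and day 6, 13.2 and 17.5 CPM with shEVI1-2531 (32.4% and 47.1% of NTC), and 5.14 and 4.31 CPM with shEVI1-2532 (12.7% and 11.6%). MECOM was thus lower in each library labelled with an EVI1 shRNA than in NTC of its day. The deposited names of the libraries labelled shEVI1-2531 carry a different shRNA number, so that this group rests on the sample titles. shEVI1-2532 left less MECOM than shEVI1-2531 (log2 difference of -1.70 ± 0.199, adjusted p = 0.000138). MYC was called with neither shRNA, whereas MXD1 and MXD4 were higher with both shRNAs at both days.

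MYC was at 290.1 and 339.7 CPM in NTC at day 3 and day 6, at 327.5 and 409.5 CPM with shEVI1-2531 and at 247.5 and 346.0 CPM with shEVI1-2532. The groups overlapped, and neither shRNA passed the test (0.22 ± 0.127, adjusted p = 0.264, and -0.10 ± 0.127, adjusted p = 0.556). For shEVI1-2532 the call depends on the scaling and the sign on a single library: with scaling to the library total, which lowers all log2 ratios of these libraries by 0.26 and 0.35, it was -0.40 (adjusted p = 0.0188), and without the shEVI1-2532 day 3 library it was 0.01.

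MXD1 was at 25.2 and 22.9 CPM in NTC, at 47.9 and 56.3 CPM with shEVI1-2531 and at 47.7 and 67 CPM with shEVI1-2532. The shRNA libraries lay above both NTC libraries, a separation that was not counted over all genes. MXD1 rose by 1.10 ± 0.17 with shEVI1-2531 (adjusted p = 0.00103) and by 1.23 ± 0.171 with shEVI1-2532 (adjusted p = 0.000132). MXD4 was at 30.7 and 45.4 CPM in NTC, 61.9 and 72.5 CPM with shEVI1-2531 and 89.3 and 107.2 CPM with shEVI1-2532. It rose with both, by 0.84 ± 0.141 (adjusted p = 0.00171) and 1.38 ± 0.143 (adjusted p = 1.41e-05). Calls of both genes were kept for shEVI1-2532 under all 13 alternatives, and for shEVI1-2531 under 12 of 13, being lost (adjusted p = 0.0558 and 0.158) when the day was left out of the model.

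MXD3 was at 10.9 and 13.3 CPM in NTC, 9.31 and 7.72 CPM with shEVI1-2531 and 4.78 and 6.80 CPM with shEVI1-2532. It fell by 1.07 on the log2 scale with shEVI1-2532 (SE 0.214, adjusted p = 0.00184), with the same limit on its counts as above. With shEVI1-2531 its change of -0.49 ± 0.211 missed the threshold (adjusted p = 0.134) and passed only without the shEVI1-2531 day 3 library (0.0439). MXI1 was at 25.8 and 22.4 CPM in NTC, at 26.5 and 25.8 CPM with shEVI1-2531, and at 15.4 and 17 CPM with shEVI1-2532. It fell with shEVI1-2532 (-0.57 ± 0.167, adjusted p = 0.0166), a call that was lost without the NTC day 3 library (0.0792) or the shEVI1-2532 day 3 library (0.247).

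MAX and MGA passed the test with shEVI1-2531 and missed it with shEVI1-2532, and the difference between the shRNAs passed for MAX but not for MGA (adjusted p = 0.196). With scaling to the library total, both passed with shEVI1-2532 as well, at -0.37 for MAX (adjusted p = 0.0433) and -0.67 for MGA (0.00843). MAX was at 102.5 and 107.1 CPM in NTC, 149.6 and 139.7 CPM with shEVI1-2531 and 88.8 and 111.9 CPM with shEVI1-2532. It rose with shEVI1-2531 (0.47 ± 0.14, adjusted p = 0.0377), but not without the NTC day 3 (0.171), shEVI1-2531 day 3 (0.393) or NTC day 6 library (0.128) or with scaling to the library total (0.151). MGA was at 39.5 and 37.0 CPM in NTC, 20.9 and 27.1 CPM with shEVI1-2531 and 27.8 and 31.8 CPM with shEVI1-2532. It fell with shEVI1-2531 (-0.69 ± 0.168, adjusted p = 0.015), though not without the NTC day 3 (0.119) or shEVI1-2531 day 3 library (0.171), and its value of -0.37 with shEVI1-2532 had an adjusted p of 0.0965, or 0.0495 without the shEVI1-2531 day 6 library.

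MLXIP was at 43.5 and 66.8 CPM in NTC, 47.9 and 72.2 CPM with shEVI1-2531 and 68.2 and 98.8 CPM with shEVI1-2532. It rose with shEVI1-2532 (0.61 ± 0.131, adjusted p = 0.00296), and the call was lost with scaling to the library total (0.31, adjusted p = 0.0826). MLX, at 109.8 and 80.7 CPM in NTC and 147.2 and 102.7 CPM with shEVI1-2532, rose by 0.39 ± 0.126 (adjusted p = 0.0283), a call that ended without any 1 of the NTC and shEVI1-2532 libraries (adjusted p from 0.071 to 0.184), with scaling to the library total (0.619) or without the low-count filter (0.0651). MNT had nearly the same values in the 3 groups, with 15.0, 15.1 and 16 CPM at day 3 and 28.7, 25.4 and 23.6 CPM at day 6.

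By count, 6 of 10 members passed with shEVI1-2532, 4 higher and 2 lower, beside 41.1% of all 18606 genes tested. With shEVI1-2531, 4 of 10 passed, 3 higher and 1 lower, beside 17.4% of all genes. In single pairs, 1 member was beyond 2-fold with shEVI1-2531 at day 3 (MXD4, 19.1% of all genes) and 1 at day 6 (MXD1, 15.4%). With shEVI1-2532, MXD4 and MXD3 were beyond it at day 3 (29.2%), and MXD1 and MXD4 at day 6 (28.7%). The largest fitted values with shEVI1-2532 were those of MXD4, MXD1 and MXD3. Leaving out the day ended the calls of MXI1 (0.13), MLX (0.385) and MLXIP (0.225) with shEVI1-2532 and of MAX (0.397) and MGA (0.206) with shEVI1-2531.

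Between the 2 shRNAs, 4 members differed by the test, beside 24.2% of all genes. MXD3 missed it (-0.58, adjusted p = 0.0706), and passed with DESeq2 (0.0441), with scaling to the library total (0.0328), without the low-count filter (0.0291) and without the day 6 library of shEVI1-2531 (0.00461) or shEVI1-2532 (0.0435), while MYC passed with scaling to the library total (-0.46, adjusted p = 0.0193). MXD4 was 0.55 ± 0.14 higher (adjusted p = 0.0145) and MLXIP 0.48 ± 0.131 higher (0.0189) with shEVI1-2532 than with shEVI1-2531. MXI1 was lower with shEVI1-2532 (-0.69 ± 0.168, adjusted p = 0.0111), and so was MAX (-0.53 ± 0.14, adjusted p = 0.016). No such difference was found for MXD1 (0.13, -0.24 to 0.50). Without the shEVI1-2532 day 3 library none of the 4 passed (adjusted p of 0.118, 0.143, 0.18 and 0.232 for MXD4, MLXIP, MXI1 and MAX), and MLXIP was lost without any 1 of the 4 shRNA libraries (0.0783 to 0.143). MAX was also lost without shEVI1-2531 day 3 (0.19) and MXD4 without shEVI1-2531 day 6 (0.131), and with scaling to the library total MXD4 (0.061) and MLXIP (0.079) did not pass. The 2 tests against NTC share the NTC libraries.

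Per exonic kilobase, the MXD sum was 16.6 and 15.5 for every 100 of MYC in NTC at day 3 and day 6. It was 21.9 and 19.2 with shEVI1-2531, and 29.6 and 26.7 with shEVI1-2532. The order of these ratios followed the remaining MECOM at each day, but MYC is their denominator. At day 3, MYC was at 109.1 CPM per kb with shEVI1-2531 and 82.5 with shEVI1-2532. MXD1 was at 7.54 and 7.51 in these 2 libraries, MXD4 at 8.77 and 12.7, MXI1 at 5.76 and 3.35, and MXD3 at 1.81 and 0.927. The part of MECOM in the order was not tested. The MXD3 share went from 13.2% and 14.7% in NTC to 3.79% and 4.29% with shEVI1-2532.

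Markers of maturation and of division moved with these members. In all, 14 of 16 monocyte and granulocyte markers rose with time of inhibition (19.8% of all genes called), 14 of 16 with shEVI1-2532 (41.1%) and 10 of 16 with shEVI1-2531 (17.4%). By the mean inhibitor test 2 of 16 rose (4.17% of all genes), and by the olaparib test 0 (0.639%), with 15 of 16 values above 0 in both. Their summed level was 1228.4 to 1602.9 CPM with DMSO and 17408.5 CPM with talazoparib at 48 h, the library in which MXD1 and MXD4 were highest. It was 1295.9 to 1718.8 CPM in NTC, 2852.2 to 3368.3 with shEVI1-2531 and 10560.3 to 10708.7 with shEVI1-2532. LYZ, S100A9 and S100A8 weigh most in this sum, as they reached 526143, 386783 and 180964 counts. No other marker of the list passed the 38112 counts of ITGAM. Of 17 genes of dividing cells, 17 fell with time of inhibition, 17 with shEVI1-2532 and 10 with shEVI1-2531. By the mean inhibitor test 2 of 17 fell and by the olaparib test 0, with 17 of 17 values below 0 in both. Their sum was 3985.2 to 4502.2 CPM with DMSO and 649.3 CPM with talazoparib at 48 h, 2735.1 to 3089.3 in NTC, 1954.9 to 2207.9 with shEVI1-2531 and 1099.6 to 1185.2 with shEVI1-2532. CD163 was the marker of the first list that reached 0, in at least 1 library. Of 9 progenitor markers, 4 fell and 2 rose with shEVI1-2532, but 3 fell and 3 rose with shEVI1-2531. Their sum was 4117.4 to 4360.0 CPM in NTC, 4298.2 to 5833.7 with shEVI1-2531 and 2895.1 to 4025.0 with shEVI1-2532. Of 8 tested with the inhibitors, 3 fell and 1 rose with time, and 0 were called for the mean, olaparib or talazoparib effect. Of 9 lymphoid markers tested, 2 fell and 1 rose with shEVI1-2532, and likewise with shEVI1-2531. The part of such a shift of cell state in the changes of MXD1, MXD4 and MXD3 was not tested.

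Further genes of the network were led by the MYC paralogs. MYCN was at 22.7 and 48.1 CPM in NTC, at 5.17 and 4.54 CPM with shEVI1-2531 and at 0.205 and 0.352 CPM with shEVI1-2532. The log2 fold changes were -2.76 ± 0.269 with shEVI1-2531 (adjusted p = 5.62e-05) and -6.94 ± 0.347 with shEVI1-2532 (adjusted p = 1.29e-07), so MYCN fell with both. With the inhibitors MYCN was at 38.0, 34.8 and 24.6 CPM in DMSO, 35.8, 26.2 and 18.9 CPM with olaparib and 35.4, 23.9 and 12.0 CPM with talazoparib, and did not pass the test (mean -0.43, adjusted p = 0.0862). MYCL stayed under 2 CPM and rose with shEVI1-2532 (1.87 ± 0.367, adjusted p = 0.00164). Of 9 genes of this list that were tested, which also holds SIN3, NCoR and HDAC corepressors, 4 rose and 4 fell with shEVI1-2532, beside 41.1% of all genes called, with a median of 0.13 against 0.00 over all genes. With scaling to the library total 1 rose and 4 fell (median -0.17). SIN3B (0.58) and HDAC1 (0.44) were among those that rose, and NCOR1 (-0.52), HDAC2 (-0.50) and SIN3A (-0.38) the others that fell. With the inhibitors 0 of 9 passed the mean edgeR test, while MYCN, MYCL, SIN3A, HDAC2 and HDAC3 had an unadjusted p under 0.05.

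Of 22 genes that act on the MYC protein, 3 rose and 8 fell with shEVI1-2532 (median -0.14), beside 41.1% of all genes called, and 1 fell with the mean of the inhibitors (median -0.22), beside 4.17%. FBXO32, a ubiquitin ligase subunit, rose by 2.52 ± 0.229 with shEVI1-2532 (adjusted p = 5.53e-06), and so did the kinases GSK3B by 0.70 and PIM1 by 0.57. BIN1, a MYC-interacting adaptor, had -1.93 ± 0.269 and CIP2A, an inhibitor of the phosphatase PP2A, -1.43 ± 0.199 (adjusted p = 0.000132 and 0.000136). AURKA, a mitotic kinase that stabilizes MYCN, fell with talazoparib (-0.99 ± 0.144, adjusted p = 0.0238).

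Genes activated by MYC in the nucleolus were mostly lower with the inhibitors than with DMSO. Of 28 genes, 5 fell (NOP56, NOP16, DKC1, GRWD1 and IMP4) and none rose for the mean effect, with 27 of 28 values below 0 and a median of -0.47 against -0.01 over all genes, of which 4.17% were called. With scaling to the library total 1 of the 28 was called (median -0.55). The medians of single pairs were -0.20, -0.32 and -0.57 with olaparib and -0.29, -0.49 and -0.89 with talazoparib at 12, 24 and 48 h. GRWD1 (-0.76 ± 0.159, adjusted p = 0.0479) and NOP56 (-0.71 ± 0.157, adjusted p = 0.0497), both of ribosome assembly, had the largest called changes with talazoparib. With shEVI1-2532, 13 fell and 2 rose (median -0.31), beside 41.1% of all genes called, or 22 and 1 (median -0.61) with scaling to the library total, with GNL3 (-1.10) and NOLC1 (-0.92) lowest and RRP12 (0.89) and BOP1 (0.37) highest. With shEVI1-2531, 3 fell (GNL3, NOLC1 and UTP20) and 2 rose (FBL and GRWD1), a share near the 17.4% of all genes, and the median of 0.08 turned to -0.09 with scaling to the library total.

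Of 26 MYC-activated genes of growth and metabolism, 2 fell for the mean effect (median -0.39), beside 4.17% of all genes called, and none with scaling to the library total (median -0.47). ODC1, the first enzyme of polyamine synthesis, was at 368.9, 316.1 and 221.0 CPM with DMSO and at 269.5, 162.8 and 57.1 CPM with talazoparib, an effect of -1.12 ± 0.243 (adjusted p = 0.0486). PRMT5, an arginine methyltransferase, was the other, at -0.63 ± 0.141 (adjusted p = 0.0497). With shEVI1-2532, 10 fell and 1 rose (median -0.29), a share near the 41.1% of all genes, and 22 fell and 1 rose with scaling to the library total (median -0.60). TERT (-2.75) and the amino acid transporter SLC7A5 (-1.02) were lowest, and PKM rose by 0.67. ODC1 was at 204.4 and 169.2 CPM in NTC and 188.2 and 159.9 CPM with shEVI1-2532 and was not called there. With shEVI1-2531, 1 fell (TFRC, -0.72), and the median of 0.10 turned to -0.07 with scaling to the library total.

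Of 6 genes that MYC is known to repress, 5 were tested, CDKN2B being too low. CDKN1A, which encodes the cell cycle inhibitor p21, was at 218.9, 194.7 and 104.6 CPM with DMSO, 560.3, 537.3 and 593.9 CPM with olaparib and 689.3, 612.9 and 746.0 CPM with talazoparib. It was higher than DMSO in all 6 pairs, and its mean effect was 1.87 ± 0.226 (adjusted p = 0.0131). GADD45A (1.04 ± 0.133) and NDRG1 (1.06 ± 0.128) rose too (adjusted p = 0.0142 and 0.0131), while NDRG2 (-0.29) and CDKN1C (0.50) did not pass (adjusted p = 0.183 and 0.257). Of all genes, 4.17% were called for the mean effect. With shEVI1-2532 the same 3 rose, by 1.58, 0.88 and 1.14, beside 41.1% of all genes called. With shEVI1-2531 CDKN1A (1.34) and GADD45A (0.72) did, beside 17.4% of all genes. MYC itself was called neither for the mean inhibitor effect nor with either shRNA, and its part in these changes was not tested.

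The 3 targets of MLXIP and MLX were most changed with shEVI1-2532. TXNIP, a brake on glucose uptake, was at 393.2 and 349.1 CPM in NTC, 680.5 and 699.0 CPM with shEVI1-2531 and 1379.0 and 1868.0 CPM with shEVI1-2532. With shEVI1-2532, TXNIP (2.12 ± 0.158), ARRDC4 (1.99 ± 0.183) and KLF10 (1.45 ± 0.158) all rose, beside 41.1% of all genes called. With scaling to the library total all 3 were still called there, whereas MLXIP was not (edgeR adjusted p = 0.0826). The part of MLXIP in these changes was not tested. With shEVI1-2531 TXNIP alone passed (0.89 ± 0.152, adjusted p = 0.00188), beside 17.4% of all genes. All 3 differed between the shRNAs by the test, beside 24.2% of all genes. With talazoparib, TXNIP rose by 0.78 ± 0.176 (adjusted p = 0.0497), beside 4.0% of all genes called. At 48 h it went from 380.3 CPM with DMSO to 899.2 CPM with talazoparib, the library with the highest MLXIP of the time course. With scaling to the library total, the talazoparib test called none of these 3 genes, of the 28 nucleolar genes (median -0.67) or of the 26 growth genes (median -0.58).

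**Figure D4:**
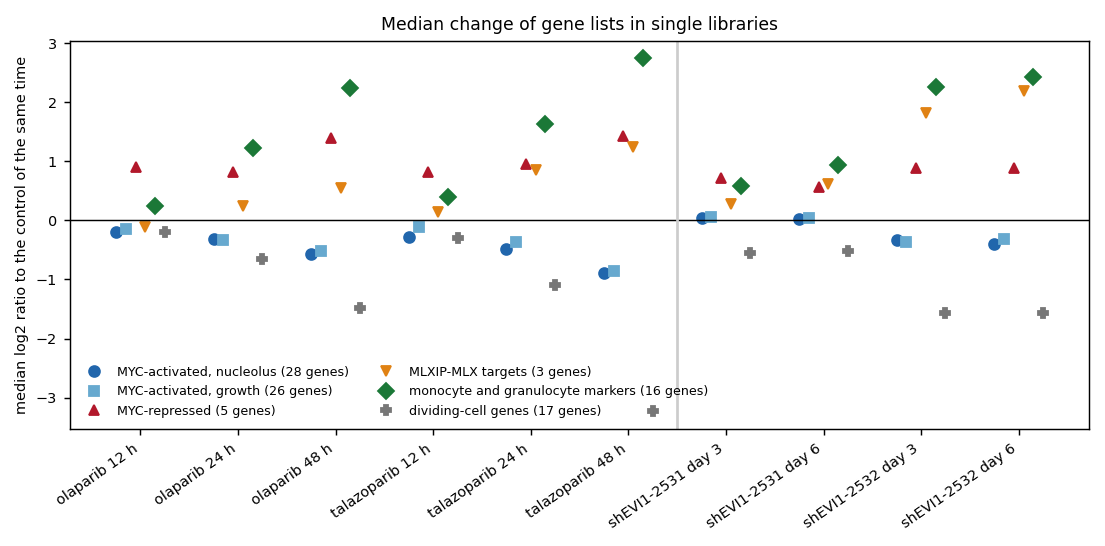
Median log2 ratio (y axis) of the tested genes of 6 lists in each inhibitor or shRNA library to the control library of the same time (x axis). The nucleolar list lies at -0.89 and the dividing-cell list at -3.23 with talazoparib at 48 h, while both MYC-activated lists stay within 0.05 of 0 with shEVI1-2531 under TMM scaling (their fitted medians are -0.09 and -0.07 with scaling to the library total).

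Across the 10 pairs of libraries, the genes whose log2 ratios lay nearest to those of MYC were C1orf52, EEF1AKMT1 and EMC8, with root mean square differences of 0.116, 0.124 and 0.129 among 8717 genes (median 0.47). For MXD1 they were TMIGD3 (0.147), CR1, a complement receptor of phagocytes (0.212), and CLEC5A, a lectin of myeloid cells (0.218), against a median of 1.5. CR1 had log2 ratios of 2.12 and 2.92 at 48 h with olaparib and talazoparib, and 1.20, 1.56, 0.75 and 1.53 with shEVI1-2531 and shEVI1-2532 at day 3 and day 6 each, beside 0.92, 1.30, 0.92 and 1.55 for MXD1. The pairs share control libraries, so this likeness is a description only.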

How the data were processed

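RNA-Seq libraries of MUTZ-3 cells (TruSeq Stranded mRNA, 100 bp paired-end) were read from deposited tables of raw counts per gene. The authors' processing notes name STAR, Picard and featureCounts on GRCh38, without versions; the strand setting is not given in the sources used here. The authors also deposited TPM, computed over whole gene spans, which were used only as a check. Raw counts were TMM-scaled and tested with edgeR 4.0.16 (quasi-likelihood, R 4.3.3) after a filter that kept genes reaching 10 counts in 3 or more of 9 inhibitor, or 2 or more of 6 knockdown, libraries. Inhibitor models held the time point and each inhibitor (4 residual degrees of freedom), plus slopes on log2 hours for the time test (2). The knockdown model held the day and each shRNA (2). The untreated library entered ratios only. Calls are Benjamini-Hochberg adjusted p under 0.05 over all genes tested. Intervals of fitted values use the t distribution; intervals of library ratios cover counting error only, and 3 counts correspond to 0.0249 to 0.0536 CPM.

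The members and gene lists were chosen with earlier results of these data known. Named besides the members are MECOM, of each list the 2 called genes with the largest change in each direction for talazoparib or shEVI1-2532 (all of a list of at most 6), and the 3 genes nearest to MYC and to MXD1. MYCN and ODC1 in the inhibitor libraries, CD163 and other lineage markers, and further members of small counts (corepressors, PIM1, NOP16, DKC1, IMP4, UTP20, FBL, TFRC) were named after their values were seen. Since time points or days stand in for replicates, p-values rest on the spread between them, which edgeR pools in part over all genes. The total degrees of freedom behind standard errors and p-values were 8.23 for inhibitor effects, 12.1 for the knockdown and 34436 for the time test. Much of the spread in the knockdown tests, and nearly all in the time test, is thus shared over genes and not a gene's own. Exonic lengths came from GENCODE v29 and promoter windows from RefSeq. Alternatives were DESeq2 1.42.0, other scalings and filters, models without time or day, and libraries left out.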

Additional observations from a re-analysis of the deposited data

Results flagged for a closer look

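Differences between the effects of the 2 EVI1 shRNAs, tested as contrasts in edgeR across all genes, were past the threshold for 4 members. Of all genes, 24.2% were called, so these calls are not particular to the network. With the day left out of the model, 0 members passed. MXD4 was 0.55 log2 units higher with shEVI1-2532 than with shEVI1-2531, and higher at each day. MLXIP was 0.48 higher, also at each day. MXI1 differed by -0.69 and MAX by -0.53, both lower with shEVI1-2532 at each day. MECOM was lower with shEVI1-2532 too (-1.70), and the summed monocyte markers, led by LYZ, S100A9 and S100A8, were higher (10560.3 to 10708.7 CPM against 2852.2 to 3368.3). The part of MECOM and of these markers in the differences was not tested.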

How the results depend on the processing

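Calls of members depended on the setting as follows. For the mean inhibitor effect, 3 members were called with DESeq2, without a low-count filter, and without the 12 h or the 48 h libraries. Over all genes, calls rose from 718 to 3474, 3728, 3768 and 1239 in these settings. With a filter of 1 CPM, without the time term or without the 24 h libraries, 0 members were called, with 318, 16 and 0 genes over all. For olaparib, 2 were called with DESeq2, without the filter and without the 12 h libraries, with 669, 977 and 934 genes over all (110 as reported). For talazoparib, 0 were called with scaling to the library total, with the 1 CPM filter, without the time term and without the 24 h libraries. Over all genes, calls were 179, 199, 12 and 0 there (688 as reported). With DESeq2, without the filter and without the 12 h or the 48 h libraries, 3 members were called, with 3740, 3876, 3954 and 1183 genes over all. For the time test with both inhibitors as 1 group, chosen after seeing the data, 0 were called without the 12 h, the 24 h or the 48 h libraries. Genes called over all were 5, 51 and 13 in these fits. With the day left out, 3 were called for shEVI1-2532, 0 for shEVI1-2531 and 0 for the difference between the shRNAs. Genes called over all were then 3536, 565 and 921. Left-out libraries changed the shEVI1-2531 count to 2 (without NTC day 3), and the count for the difference to 2 (without shEVI1-2531 day 3) and 0 (without shEVI1-2532 day 3).

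Reversed signs were those of values near 0. For the mean effect, MXI1 was 0.04 with upper quartile scaling, 0.01 with the 1 CPM filter, 0.03 without the time term, 0.06 without the 12 h and 0.03 without the 24 h libraries; MNT was -0.01 with the library total and -0.06 without the 48 h libraries, where MLX was -0.02. For olaparib, MNT was -0.01 with DESeq2, -0.05 with the library total and -0.05 without the 48 h libraries, where MLX was -0.07. For talazoparib, MXI1 was -0.05 with the library total and -0.08 without the 48 h libraries, where MNT was -0.07. For talazoparib minus olaparib, MGA was 0.0 with upper quartile scaling and without the 24 h libraries, where MLX was -0.02. MYC was -0.04 and MAX -0.01 with the library total, and MYC -0.0 without the filter. Without the 48 h libraries this difference was -0.13 for MYC, -0.01 for MAX, MXD1 and MLXIP, and -0.02 for MNT. For the time test with 1 group and without the 48 h libraries, MYC was -0.02, MNT -0.1 and MGA 0.02.

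For shEVI1-2532, MYC was 0.01 and MAX 0.11 without its day 3 library, and MNT 0.05 without NTC day 6 and 0.04 without shEVI1-2532 day 6. For shEVI1-2531, the library total gave -0.05 for MXI1, -0.1 for MLX and -0.04 for MLXIP, and MNT was 0.08 without NTC day 6. For the difference between the shRNAs, MXD1 was -0.01 with the library total and -0.1 without shEVI1-2532 day 6, and MNT 0.0 with the 1 CPM filter and 0.13 without shEVI1-2532 day 6. Single-library ratios under the library total turned to -0.32 for MYC and -0.29 for MAX (shEVI1-2532 day 6), -0.05 for MNT (olaparib 48 h), -0.08 for MLX (shEVI1-2531 day 6), and -0.03 and -0.06 for MLXIP (shEVI1-2531 day 3 and day 6). That scaling shifts all log2 ratios by -0.19 and -0.27 at 48 h with olaparib and talazoparib and by -0.17 to -0.35 in the shRNA libraries.

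Over all genes, calls ranged from 0 to 3768 for the mean effect (718 as reported), 0 to 977 for olaparib (110), 0 to 3954 for talazoparib (688), 0 to 5 for their difference (0), 5 to 3515 for the time test (3412), 3536 to 8482 for shEVI1-2532 (7648), 565 to 3999 for shEVI1-2531 (3235) and 921 to 5118 for the difference between the shRNAs (4505). The share of calls that were higher went with the library total from 51.5% to 28.4% for shEVI1-2532, 54.6% to 31.6% for shEVI1-2531, 50.4% to 33.7% for their difference, 50.4% to 31% for the time test and 75% to 90.5% for talazoparib. With DESeq2 it was 52.8% for the mean effect (75.8% as reported), 52.5% for talazoparib and 87.3% for olaparib (100.0%). The causes were not tested. Replicates could not be paired, because the labels number none and each condition has 1 library. Libraries were matched by time point or day only, as a term of the models. At this depth all members are far above the limit of 3 counts.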
